A study of Rattus norvegicus with 12 samples.

Results

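Versican, aggrecan, their link protein, the hyaluronan synthase and receptor that go with them, and the ADAMTS proteases that cut them were followed across neonatal and adult rat aorta and semilunar valve. The set holds 10 genes: Vcan, Acan, Hapln1, Has2, Cd44, Adamts1, Adamts4, Adamts5, Adamts9 and Adamts15. Every probe set whose single annotated symbol was one of them was taken, which gave 20 of the 31099 probe sets on the array; 14217 genes have at least 1 probe set with a single symbol. Vcan had 5, Hapln1 had 3, Acan, Cd44, Adamts5 and Adamts9 had 2 each, and the other 4 genes had 1. RNA came from Wistar rats and was measured on 12 arrays, 3 in each of 4 groups by title. The groups were the proximal aorta collected within 24 h of birth (neonatal aorta), the proximal aorta of adult males (adult aorta), the aortic and pulmonary semilunar valves of newborns collected within the same 24 h (neonatal valve), and the same valves of adult males (adult valve). No group carries a treatment or an altered gene, the adults' age is not given in the sources used here, and the aortic and pulmonary valves share each valve sample. The comparisons set adult against newborn tissue in aorta and in valve, and valve against aorta at each age.

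Versican and aggrecan are lecticans, large proteoglycans with chondroitin sulfate chains that bind the sugar polymer hyaluronan through their amino-terminal domain, and link protein locks that bond. Hyaluronan is made at the cell surface by hyaluronan synthases and is bound by CD44. Versican-rich, hydrated matrix fills the endocardial cushions from which valves form, and it is also laid down in the arterial wall. Several ADAMTS metalloproteases cleave versican and aggrecan at glutamate bonds of the core protein, and cleavage of versican takes part in the sculpting of the fetal valve.

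Values are signals on a linear scale, and a probe set's signal is compared only with its own on other arrays, since probe sets differ in binding strength. Differences are in log2 with their standard error (SE), from 1 limma fit over all probe sets, and "called" means a Benjamini-Hochberg adjusted p under 0.05 over the 18552 probe sets that exceeded a signal of 171.944, the median of all values, on at least 3 arrays. Of the 20 probe sets 16 passed this filter. The other 4 were Vcan 1371233_at, above the median on 0 arrays, and Hapln1 1386310_at, Hapln1 1384541_at and Adamts9 1394518_at, each above it on 2 arrays. Among all arrays, median signals were 183 to 202 in aorta and 133 to 170 in valve, a shift of array medians of -0.33 (neonatal) and -0.39 (adult) in log2 for valve against aorta that the tissue comparisons below include. The labels do not say whether the 3 arrays of a group are of different animals, and p-values then measure only the spread between these samples.

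Several arrays stood apart from their labels. For the 6 arrays titled adult aorta and neonatal valve, the description and tissue entries name the other group. Igf2, a fetal growth factor gene, read 17222 to 20768 in neonatal aorta, 339 to 879 in adult aorta, 6189 to 8898 in neonatal valve and 184 to 376 in adult valve, so it was high in both groups titled neonatal. Under the other entries, the values given below for adult against neonatal aorta would belong to neonatal valve against neonatal aorta and the reverse, and those for adult against neonatal valve to adult valve against adult aorta and the reverse. Xist, transcribed from the inactive X chromosome, read 10998 to 18362 on the 6 valve arrays and at most 297 on the aorta arrays, while the Y-linked Eif2s3y read 1379 to 2557 in aorta and at most 134 in valve. The adult valve arrays therefore go against their label as male, and sex and tissue cannot be told apart in any comparison of valve with aorta. The ratio of 3' to 5' signal for beta-actin was 1.40 to 2.59 in aorta, 7.24 to 8.84 in neonatal valve and 10.65 to 13.99 in adult valve, so it separated the tissues and also the valve ages with no overlap, and its part in those differences was not tested. Neonatal aorta arrays 2 and 3 lacked the 4 control RNAs added to the other 10, and the 7 probe sets for these RNAs read 2.52 to 54.6 there, which serves here as the level of absent RNA. With these 2 arrays as a block, neonatal aorta rests on array 1 alone.

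Some arrays also held RNA of other tissues. Squamous epithelium markers (9 of 11 measured) summed to 173391 on adult aorta 1 and to 1040 and 1163 on the other adult aorta arrays, and skeletal muscle markers (10 of 11 measured) to 196379 against 12819 and 18314. In neonatal aorta, the squamous sum was 81764 on array 2 against 756 and 6895. In neonatal valve, thymocyte markers (8 of 11 measured) summed to 36073 on array 3 against 444 and 3235. Cardiac muscle markers (10 of 11 measured) moved with age: they summed to 47616 to 75264 in neonatal aorta against 397 to 30622 in adult aorta, where 3 of them were at or below the level of absent RNA on all arrays, and to 103568 to 122791 in neonatal valve against 5807 to 102963 in adult valve, with adult valve 2 the highest. The sum of 30622 was that of adult aorta 1, where Myl3 alone read 29462, while Myh6 read 6.63 and Tnnt2 107. Smooth muscle markers (9 of 9 measured) summed to 33822 to 48315 in neonatal aorta, 34756 to 148135 in adult aorta and 14430 to 21192 in neonatal valve, and in adult valve to 8134 on array 3 against 37844 and 58435. Endothelium markers (7 of 9 measured) summed to 8932 to 11148 in neonatal aorta and 3788 to 8495 in adult aorta. They summed to 7727 to 10888 in neonatal valve and to 11670.5 to 31371.5 in adult valve, above every array of the other groups. The part of these tissues and cell types in the age and tissue differences below was not tested. Adult aorta 1, neonatal aorta 2 and neonatal valve 3 were also left out together, a choice made after seeing the data. In a bulk sample, fewer cells of a type and less RNA per cell cannot be told apart.

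Vcan and Hapln1 lie next to each other in the RefSeq annotation of GRCr8, with 0 protein-coding genes between them, and so do Adamts1 and Adamts5. RefSeq promoters were found for 7 of the 10 genes. The 100 bases before the start of 4 of them are shown, for the neighbours Vcan and Hapln1, which were both called higher in adult valve than in adult aorta, and for Acan and Cd44, which were called lower in valve comparisons. Capitals mark matches to GGGCGG or CTTTGAA on either strand.
Vcan, chr2:22595956-22596055, minus strand: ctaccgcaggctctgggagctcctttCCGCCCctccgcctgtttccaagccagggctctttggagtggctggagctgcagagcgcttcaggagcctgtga
Hapln1, chr2:22366867-22366966, plus strand: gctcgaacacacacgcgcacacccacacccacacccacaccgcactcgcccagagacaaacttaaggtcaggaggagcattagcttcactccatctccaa
Acan, chr1:142390851-142390950, plus strand: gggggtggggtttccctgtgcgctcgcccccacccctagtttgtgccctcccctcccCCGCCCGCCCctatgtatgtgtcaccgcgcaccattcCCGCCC
Cd44, chr3:109699425-109699524, minus strand: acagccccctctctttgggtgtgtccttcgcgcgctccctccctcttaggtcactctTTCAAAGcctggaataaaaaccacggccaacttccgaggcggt

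The search covered 250 bases before the start, on both strands. GGGCGG, the core of the Sp1 site, was found in 4 of the 7 promoters and in 32.4% of all 27457 in the table. Vcan had it at -74 from the start, and Acan at -43, -39 and -6, the first pair overlapping. Adamts1 and Adamts9 had it as well. CTTTGAA, a TCF/LEF motif, was found in Cd44 alone at -43, against 4.63% of all promoters, and TATAAA, the TATA box, in Adamts1 alone at -70, against 13.1%. TGANTCA, the AP-1 motif, was in 0 of 7, against 6.36%. The windows of the neighbours Vcan and Hapln1 held 61.6% and 54% G or C, and that of Acan 73.6%. A match here is a description of letters only. The start is that of the promoter table, which for Cd44 and Adamts9 lies inside the annotated extent of the gene.

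Across the comparisons, the set was called most often between adult valve and adult aorta. There 7 of the 16 tested probe sets were called, 6 higher and 1 lower in valve, in 4 genes, against 37.1% of all probe sets tested (17.3% higher, 19.9% lower), and the set's median difference was 1.11 against -0.05 for all. Between neonatal valve and neonatal aorta 4 were called, 1 higher and 3 lower, against 32.6% of all (13.3% higher, 19.3% lower), with medians of 0.09 and -0.09. In the valve with age 2 were called, 1 higher and 1 lower, against 9.21% of all (4% higher, 5.21% lower), and in the aorta with age 1 was called, lower, against 7.31% (1.94% higher, 5.37% lower). The set's shares were 43.8%, 25%, 12.5% and 6.25%, close to those of all probe sets. Of the 6 called higher in adult valve, 4 belong to Vcan. Probe sets whose arrays did not overlap between the groups, called or not, were also counted. In aorta with age 0 were higher and 7 lower, where 10.7% and 20.2% of all probe sets were, and in valve with age 4 were higher and 2 lower, against 14.9% and 18.5%. Between the neonatal tissues 3 were higher in valve and 4 lower, against 26.2% and 33.5%, and between the adult tissues 6 and 2, against 21.1% and 23.2%. The comparisons share arrays with each other, and each is given by its own values.

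**Figure D1:**
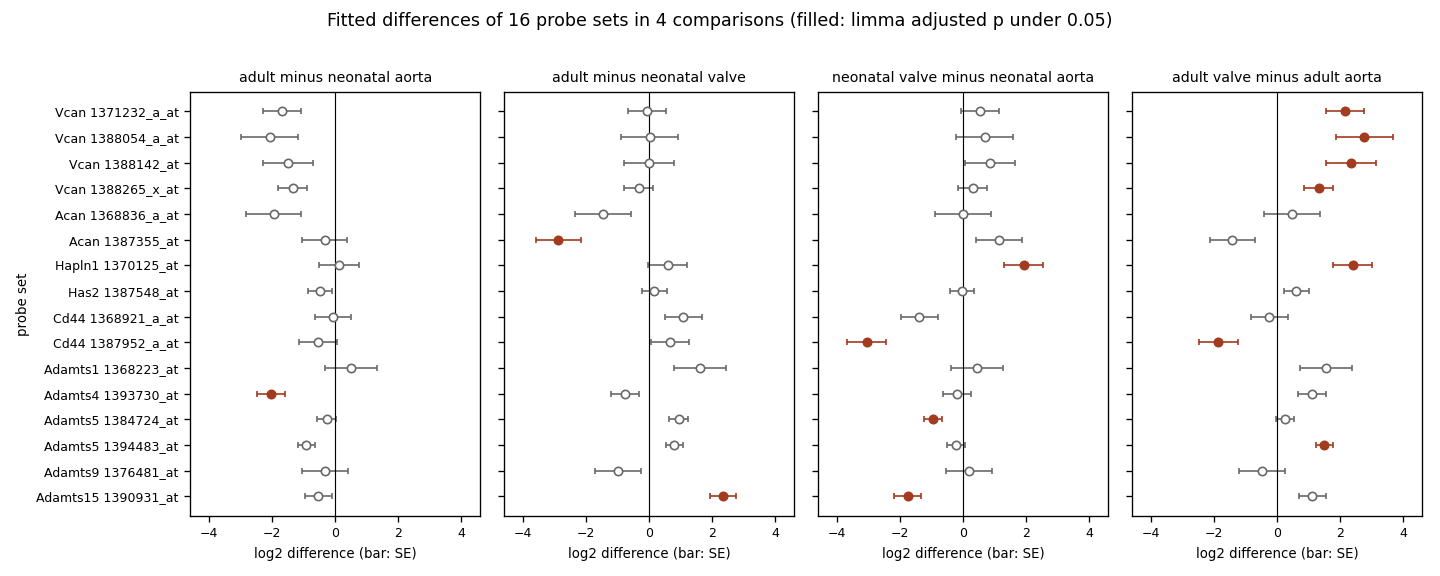
Fitted log2 differences (horizontal axis, bars are SE) of the 16 tested probe sets (vertical axis) in 4 comparisons, with filled red points for an adjusted p under 0.05. The 4 Vcan probe sets sit between 1.32 and 2.77 for adult valve against adult aorta and between -0.34 and 0.01 for adult against neonatal valve, while Adamts15 is at 2.34 with age in valve and -0.54 in aorta.

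Versican was high in both valve groups and varied widely in adult aorta. The brightest probe set, Vcan 1388142_at, read 3714, 3296 and 4039 on the neonatal aorta arrays and 231, 2476 and 3817 on the adult aorta arrays. It read 6994, 5855 and 7198 in neonatal valve and 4903, 5219 and 11337 in adult valve. All 6 valve arrays were above all 6 aorta arrays, and the adult aorta spread over a wide range because array 1 was low. In adult valve it was 5.10-fold higher than in adult aorta (2.35 ± 0.80 SE in log2, adjusted p = 0.039), and without adult aorta 1 the difference was 1.11 (adjusted p = 0.025).

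The other Vcan probe sets gave the same direction in that comparison. Vcan 1388054_a_at read 72.2, 1102 and 1589 in adult aorta against 1893, 3564 and 6003 in adult valve (2.77 ± 0.90, adjusted p = 0.032), and Vcan 1371232_a_at read 201, 757 and 1277 against 1328, 2721 and 4837 (2.16 ± 0.60, adjusted p = 0.016). Vcan 1388265_x_at read 85.8, 244 and 349 against 367, 481 and 647 (1.32 ± 0.46, adjusted p = 0.042). In each of the 4, no adult valve array was as low as any adult aorta array. Without adult aorta 1, the array with squamous and skeletal muscle RNA, the 4 differences were 1.11 (1388142_at), 1.38 (1388054_a_at), 1.40 (1371232_a_at) and 0.73 (1388265_x_at), and the last was no longer called (adjusted p = 0.11). Without adult valve 3, the highest array and the one with the low smooth muscle sum, they were 1.96, 2.37, 1.72 and 1.11, and none was called. Without adult aorta 3, 1388142_at and 1388054_a_at differed by 3.13 and 3.61. Calls were also lost for 1388142_at without adult valve 1 (2.57) or 2 (2.52), for 1388054_a_at without adult valve 2 (2.75), and for 1388265_x_at without adult aorta 2 (1.49) or adult valve 2 (1.33), and with only the adult arrays in the fit none of the 4 was called. With the block for control RNAs 1388142_at and 1388265_x_at were not called (adjusted p = 0.0541 and 0.0544), nor was 1371232_a_at without the 3 arrays with other tissue (0.0576) or 1388265_x_at without the filter (0.0507).

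With age, no versican probe set was called in either tissue. Vcan 1388142_at differed by -0.01 ± 0.80 between adult and neonatal valve, and the other 3 by 0.01, -0.07 and -0.34. In aorta all 4 had a lower adult mean, at -1.50 ± 0.80 (1388142_at, adjusted p = 0.29), -2.08 ± 0.90 (1388054_a_at, 0.19), -1.71 ± 0.60 (1371232_a_at, 0.11) and -1.36 ± 0.46 (1388265_x_at, 0.098). Of these, 3 had no overlap between the ages, as did 20.2% of all probe sets in that direction. Without adult aorta 1 the aorta differences were -0.26, -0.68, -0.94 and -0.77, and without adult aorta 3 those of 1371232_a_at (-2.28) and 1388265_x_at (-1.78) were called. Between the neonatal tissues, the valve was higher by 0.86 ± 0.80 at 1388142_at and by 0.30 to 0.69 at the others, none called. That SE is pooled with the wide adult aorta. With only the neonatal arrays in the fit, 1388142_at (0.86 ± 0.14, adjusted p = 0.00188) and 1388054_a_at (0.69 ± 0.17, adjusted p = 0.0101), whose arrays did not overlap, were called.

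The order of the Vcan 1388142_at geometric means was neonatal valve (6655), adult valve (6620), neonatal aorta (3670) and adult aorta (1297). Neonatal and adult valve overlapped and did not differ beyond their spread, nor did neonatal and adult aorta. The step from adult valve to neonatal aorta, between which no arrays overlapped, was not tested. Vcan 1371233_at, made from the same transcript record as 1371232_a_at and 1388265_x_at, read 3.34 to 66.2 on the 12 arrays, about the level of absent RNA. It gives no level for versican, and the other 4 probe sets cannot be told apart by isoform from the files.

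Link protein, which holds versican or aggrecan on hyaluronan, marked the valve at both ages. Hapln1 1370125_at read 63.0, 56.7 and 48.8 in neonatal aorta and 52.5, 46.4 and 90.5 in adult aorta, close to the level of absent RNA. In neonatal valve it read 280, 145 and 234 and in adult valve 97.5, 519 and 635. Every valve array was above every aorta array. The difference was 1.92 ± 0.62 between the neonatal tissues (adjusted p = 0.035) and 2.40 ± 0.62 between the adult tissues (adjusted p = 0.012), and the latter was 3.25 without adult valve 1. With age it was 0.11 in aorta and 0.58 ± 0.62 in valve (adjusted p = 0.94 and 0.60). The order of geometric means was adult valve (318), neonatal valve (212), adult aorta (60.4) and neonatal aorta (55.9). Adult and neonatal valve overlapped, as did the aortas, and the step between neonatal valve and adult aorta was not tested.

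The neonatal call did not stand without any 1 of 5 arrays. It was lost without neonatal aorta 1, 2 or 3 (1.83 to 2.01) and without neonatal valve 1 (1.72) or 3 (1.85), and with the arrays lacking control RNAs as a block it was 1.75 (adjusted p = 0.27). Without the 3 arrays with other tissue it was 1.86 in neonatal and 2.30 in adult tissue (adjusted p = 0.051 for the latter), and neither was called. With only the adult arrays in the fit, the difference between the adult tissues was not called (adjusted p = 0.064). The probe sets below the filter gave the same direction: Hapln1 1386310_at read 0.732 to 24.9 in aorta, 29.4 to 108 in neonatal valve and 83.2, 440 and 947 in adult valve, and Hapln1 1384541_at read 0.304 to 13.7 in aorta, 42.2 to 119 in neonatal valve and 56.2, 289 and 666 in adult valve. In a fit with no filter, the adult valve was called higher than adult aorta at both (adjusted p = 0.0086 and 0.0021), as was the neonatal valve against neonatal aorta (0.038 and 0.032). Since their aorta signals lie below the level of absent RNA, no fold is given.

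Aggrecan, the main lectican of cartilage, differed most among the neonatal valve arrays. Acan 1387355_at read 223, 182 and 260 in neonatal aorta and 128, 168 and 242 in adult aorta. It read 1126, 116 and 848 in neonatal valve and 35.4, 85.7 and 91.4 in adult valve. Neonatal valve 1 and 3 were the highest of the 12 arrays and neonatal valve 2 was below all neonatal aorta arrays. The adult valve arrays were the lowest 3. Aggrecan was 7.37-fold lower in adult than in neonatal valve (-2.88 ± 0.72, adjusted p = 0.032), and the adult level lay near that of absent RNA, so the fold is rough. Without neonatal valve 2 it was -3.90. The call was lost without neonatal valve 1 (-2.27) or 3 (-2.47), without adult valve 1 (-2.44) or 3 (-3.12), and without the 3 arrays with other tissue, and with the block for control RNAs its adjusted p was 0.052. With only the valve arrays in the fit it was not called either (adjusted p = 0.0875).

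The second aggrecan probe set did not pass the test for that difference. Acan 1368836_a_at read 456, 47.5 and 327 in neonatal valve and 62.7, 93.1 and 56.2 in adult valve (-1.48 ± 0.88, adjusted p = 0.32), and 185, 167 and 230 in neonatal aorta against 98.0, 91.4 and 13.5 in adult aorta (-1.96 ± 0.88, adjusted p = 0.21). The 2 probe sets thus shared the pattern among neonatal valves, low on array 2, and gave -0.34 and -1.96 for aorta with age. The order of the Acan 1387355_at geometric means was neonatal valve (480), neonatal aorta (219), adult aorta (174) and adult valve (65.2). Neonatal valve and neonatal aorta did not differ beyond their spread (1.13 ± 0.72, adjusted p = 0.26), nor did the aortas (adjusted p = 0.83), and adult valve was below adult aorta with no overlap but not called (-1.41 ± 0.72, adjusted p = 0.15). Without neonatal valve 2 the neonatal tissue difference was 2.15 (adjusted p = 0.0071).

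Cartilage markers other than Acan had their lowest sums in adult aorta. Of 12 listed, 10 were measured, and they summed to 3212 to 3600 in neonatal aorta, 607 to 1238 in adult aorta, 2006 to 3731 in neonatal valve and 2068 to 6568 in adult valve. Collagen II (Col2a1) and matrilin 1 (Matn1), 2 of the defining cartilage genes, read 43.0 to 157 and 18.9 to 161 on the 12 arrays. Others of the list moved with age in valve, in both directions. Col9a1 read 1029, 395 and 530 in neonatal valve, lowest on array 2, and 24.5, 15.1 and 11.5 in adult valve. Col11a1 read 1214, 520 and 709 against 130, 145 and 84.4. Comp was higher in adult valve instead (347, 87.2 and 192 against 1147, 4559 and 1165.5), as was Chad (14.1, 69.5 and 21.8 against 325, 1252 and 150). The median log2 of the list was 7.69, 6.33 and 7.18 on neonatal valve arrays 1 to 3, also lowest on array 2. The part of cartilage in the aggrecan values was not tested.

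**Figure D2:**
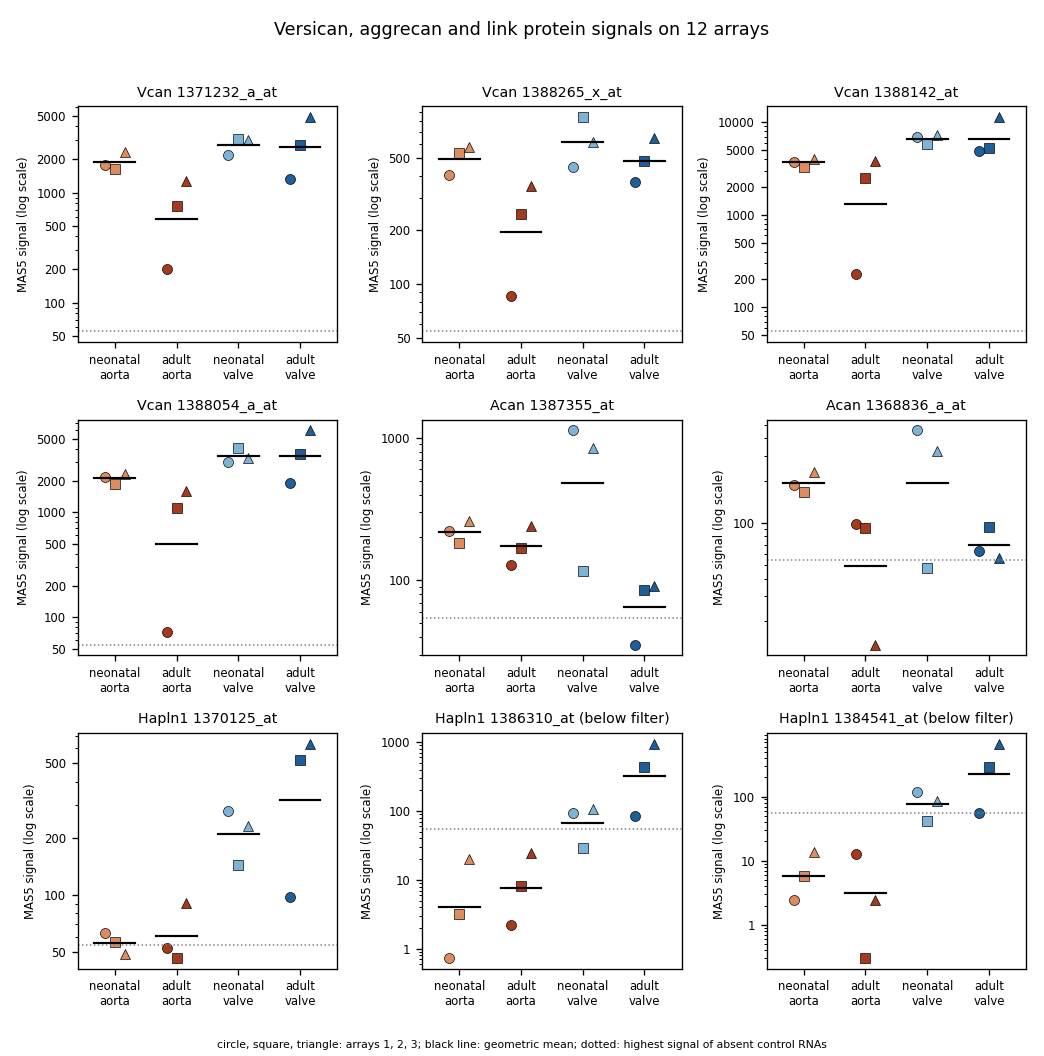
Signals (vertical axes, log scale) of Vcan, Acan and Hapln1 probe sets on the 12 arrays, with arrays 1 to 3 of each group as circle, square and triangle, geometric means as black lines, and the highest signal of absent control RNA (54.6) as a dotted line. Vcan 1388142_at reads 231 on adult aorta 1, and Acan 1387355_at is high on neonatal valve 1 and 3 (1126 and 848). Hapln1 1370125_at is near the dotted line in aorta and above it in valve. Hapln1 1386310_at and 1384541_at lie below the line on all aorta arrays and on neonatal valve 2 (29.4 and 42.2).

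Has2, the hyaluronan synthase needed for endocardial cushion formation, was not called in any comparison. Has2 1387548_at read 242, 199 and 202 in neonatal aorta and 134, 199 and 133 in adult aorta. It read 270, 162 and 208 in neonatal valve and 123, 271 and 384 in adult valve. The differences were -0.49 ± 0.39 with age in aorta (adjusted p = 0.50), 0.17 ± 0.39 with age in valve (0.83), -0.03 ± 0.39 between the neonatal tissues (0.96) and 0.62 ± 0.39 between the adult tissues (0.24). The adult aorta arrays were below all neonatal aorta arrays, but the nearest 2 read almost the same (198.96 and 199.35). In that direction, 20.2% of all probe sets had no overlap. Without adult valve 1, the adult tissue difference was 1.08 and called (adjusted p = 0.028).

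CD44, a cell-surface receptor that binds hyaluronan and is abundant on leukocytes, was lower in valve than in aorta at 1 of its 2 probe sets. Cd44 1387952_a_at read 635, 835 and 711 in neonatal aorta and 67.1, 125 and 76.5 in neonatal valve. In adult aorta it read 1514, 283 and 283 and in adult valve 73.1, 159 and 220. Every valve array was below every aorta array. The neonatal valve was 8.37-fold lower (-3.06 ± 0.61, adjusted p = 0.0035), and with the arrays lacking control RNAs as a block the difference was -2.88 (adjusted p = 0.082). The adult valve was 3.62-fold lower (-1.86 ± 0.61, adjusted p = 0.034). Without adult aorta 1, the highest of the 12 arrays, this was -1.05 and not called (adjusted p = 0.079), and the call also went without adult valve 1 (-1.41) or 2 (-1.97) and with each array centred on its median (-1.47). It went as well with quantile normalization (-1.56), a block for replicate number, only the adult arrays in the fit, and without the 3 arrays with other tissue. That made 8 of 16 alternatives.

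The other Cd44 probe set showed a smaller tissue difference. Cd44 1368921_a_at read 462, 1060 and 699 in neonatal aorta, 1491, 420 and 465 in adult aorta, 164, 366 and 315 in neonatal valve and 278, 634 and 1004 in adult valve. The neonatal difference was -1.39 ± 0.58 (adjusted p = 0.089) and the adult one -0.24 ± 0.58 (adjusted p = 0.77), neither called. With age neither probe set was called in either tissue, at -0.55 and -0.08 in aorta and 0.66 and 1.08 in valve. Both were highest on adult aorta 1. By geometric mean both probe sets ordered the groups as neonatal aorta, adult aorta, adult valve and neonatal valve, and which part of the Cd44 transcript each reads is not given in the files used.

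Macrophage markers, with 10 of 11 measured, summed to 10428 to 16086 in neonatal aorta and 5953 to 13680 in neonatal valve, and to 9053 to 14230 in adult aorta and 12373 to 22305 in adult valve. Their part in the Cd44 values was not tested. On adult aorta 1, the array with the highest CD44 in that group, the squamous and skeletal muscle sums were the highest of the 12 arrays.

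**Figure D3:**
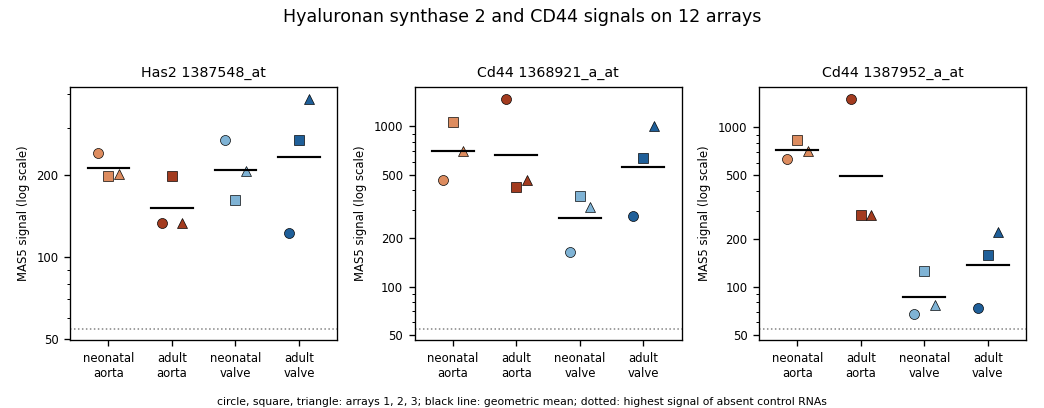
Signals (vertical axes, log scale) of Has2 and Cd44 probe sets on the 12 arrays, marked by group and array, with geometric means as black lines and the level of absent control RNA (54.6) as a dotted line. Has2 lies between 123 and 384 everywhere, Cd44 1387952_a_at is at 67.1 to 220 on the valve arrays and at 283 to 1514 on the aorta arrays, and adult aorta 1 is high at both Cd44 probe sets.

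Among the proteases, Adamts15 had the clearest difference with age. This gene encodes a versican- and aggrecan-cleaving ADAMTS protease. Adamts15 1390931_at read 221, 276 and 293 in neonatal valve and 859, 1364 and 1997 in adult valve, against 953, 780 and 940 in neonatal aorta and 288, 881 and 897 in adult aorta. The neonatal valve arrays were below every other array except that adult aorta 1 lay beside the highest of them, and 2 of the 3 adult valve arrays were above all aorta arrays. It was 5.07-fold higher in adult than in neonatal valve (2.34 ± 0.42, adjusted p = 0.0082), and the call held in all 16 alternative settings, at 2.05 to 2.66. In aorta the age difference was -0.54 ± 0.42 (adjusted p = 0.49).

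Between the tissues Adamts15 was 3.39-fold lower in neonatal valve than in neonatal aorta (-1.76 ± 0.42, adjusted p = 0.0091), with no overlap of arrays. With the arrays lacking control RNAs as a block it was -1.86 (adjusted p = 0.099). In adult valve it was higher than in adult aorta by 1.12 ± 0.42, not called (adjusted p = 0.058), and adult aorta 1 was the lowest aorta array. It was 0.58 without adult aorta 1 and 0.58 without the 3 arrays with other tissue (adjusted p = 0.162 and 0.203). It was called without adult aorta 2 (1.39) or 3 (1.40), without adult valve 1 (1.44) and with each array centred on its median (1.51). The order of geometric means in these groups therefore ran from neonatal valve at the bottom to adult valve at the top, with the aortas between and not separated from each other.

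Adamts5, whose product is a major aggrecanase and also cuts versican in developing valves, was called at a different probe set in each tissue comparison. Adamts5 1394483_at read 557, 1093 and 763 in adult aorta and 2733, 1883 and 2056 in adult valve. It read 1371, 1251 and 1868 in neonatal aorta and 1389, 1346 and 1076 in neonatal valve. The adult valve arrays were the highest 3 of the 12, and adult aorta had the lowest geometric mean. It was 2.83-fold higher in adult valve than in adult aorta (1.50 ± 0.27, adjusted p = 0.0018), called in all 16 alternative settings at 1.26 to 1.89. With age it was -0.93 ± 0.27 in aorta (adjusted p = 0.064) and 0.80 ± 0.27 in valve (adjusted p = 0.09), neither called, both with no overlap. Without adult aorta 2 the aorta difference was -1.18 and called.

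Adamts5 1384724_at instead differed between the neonatal tissues. It read 780, 657 and 902 in neonatal aorta and 408, 411 and 388 in neonatal valve (-0.94 ± 0.29, adjusted p = 0.027), and 401, 954 and 672 in adult aorta and 812, 641 and 860 in adult valve (0.27 ± 0.29, adjusted p = 0.49). The neonatal valve arrays were close to each other and below the neonatal aorta arrays. The call was lost with each array centred on its median (-0.61), without neonatal aorta 1 or 3, without any 1 neonatal valve array, and with the arrays lacking control RNAs as a block (-0.96, adjusted p = 0.20). With age it was -0.28 in aorta and 0.93 ± 0.29 in valve (adjusted p = 0.067), and the latter showed no overlap. Both Adamts5 probe sets had adult valve above neonatal valve on every array.

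Adamts4, an aggrecanase that inflammatory signals induce in cartilage, was lower in adult aorta. Adamts4 1393730_at read 422, 494 and 720 in neonatal aorta and 60.9, 233 and 147 in adult aorta, and 453, 505 and 440 in neonatal valve against 191, 267 and 399 in adult valve. In both tissues every adult array was below every neonatal array. In aorta the adult level was 4.16-fold lower (-2.06 ± 0.44, adjusted p = 0.019). With only the aorta arrays in the fit this was not called (adjusted p = 0.0757). The call was lost with the arrays lacking control RNAs as a block (-1.72, adjusted p = 0.34), without neonatal aorta 2 (-2.11) or 3 (-1.84), and without the 3 arrays with other tissue (-1.57, adjusted p = 0.070), but not without adult aorta 1 (-1.52, adjusted p = 0.018). In valve it was -0.77 ± 0.44 (adjusted p = 0.30), and the adult tissues differed by 1.10 ± 0.44 (adjusted p = 0.072), which was called without adult aorta 2 (1.53) and with each array centred on its median (1.49). It was 0.56 without adult aorta 1 and 0.56 without the 3 arrays with other tissue (adjusted p = 0.221 and 0.284).

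Adamts1, a protease that cuts versican in many tissues, had wide spread and no call. Adamts1 1368223_at read 1209, 850 and 1977 in neonatal aorta, 340, 3597 and 4703 in adult aorta, 2813, 1328 and 1357 in neonatal valve and 8676, 4552 and 3658 in adult valve. The adult valve was above the neonatal valve with no overlap (1.61 ± 0.82, adjusted p = 0.24). Adult aorta 1 was the lowest of the 12 arrays and the other adult aorta arrays were above every neonatal one. Without that array, the aorta difference with age was 1.70 in place of 0.50, and called (adjusted p = 0.034).

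Adamts9, a secreted protease that cleaves versican and is active in the developing heart, was also without a call. Adamts9 1376481_at read 946, 758 and 1087 in neonatal aorta, 170, 1177 and 1984 in adult aorta, 1316, 1221 and 718 in neonatal valve and 957, 478 and 325 in adult valve. Adult aorta 1 was again the lowest array. The valve difference with age was -0.99 ± 0.74 (adjusted p = 0.43), and without adult aorta 1 the adult tissue difference was -1.53 in place of -0.47, and called (adjusted p = 0.019). Adamts9 1394518_at, below the filter, read 47.2 to 230 on the 12 arrays and differed by -1.13 ± 0.46 between adult valve and adult aorta in the fit with no filter (adjusted p = 0.089).

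**Figure D4:**
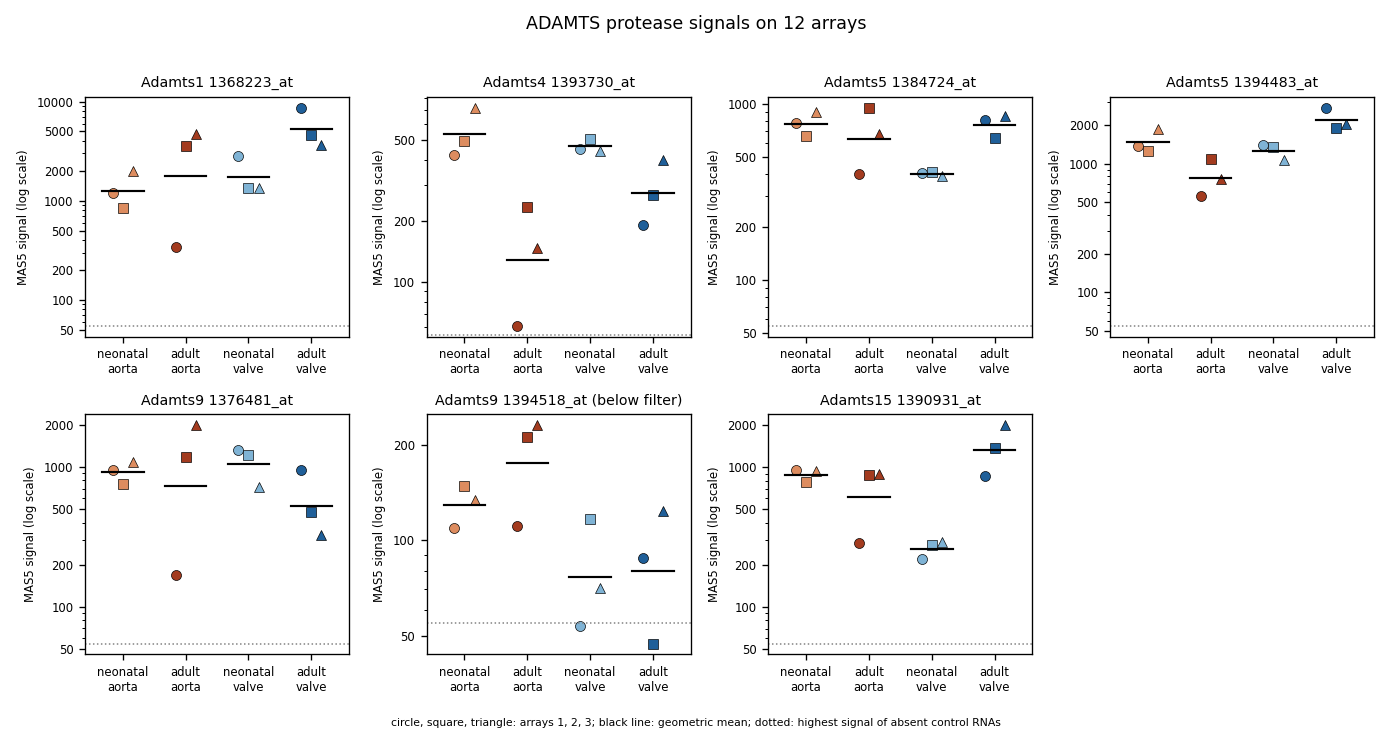
Signals (vertical axes, log scale) of the ADAMTS probe sets on the 12 arrays, marked by group and array, with geometric means as black lines and the level of absent control RNA (54.6) as a dotted line. Adamts15 runs from 221 to 293 in neonatal valve to 859 to 1997 in adult valve, Adamts4 is lower in adult than in neonatal arrays of both tissues, and adult aorta 1 is the lowest adult aorta array in every panel.

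Whether the change with age differed between the tissues was tested directly. Of the 16 probe sets, 0 were called, against 11 of all 18552 (0.0593%). Adamts15 gave the largest difference of the set, 2.88 ± 0.60 (adjusted p = 0.11), followed in size by Acan 1387355_at at -2.54 ± 1.02 (0.36). Adamts5 gave 1.73 ± 0.38 (1394483_at, 0.12) and 1.21 ± 0.41 (1384724_at, 0.29). The median over the 16 was 1.18, against 0.06 for all probe sets. Without adult aorta 1, the Adamts15 difference was 2.34 (adjusted p = 0.063). A p above 0.05 does not show that the tissues change alike.

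Other genes of the same biology were read by their brightest probe set from 5 lists of 80 genes, of which 60 are on the array and 42 were tested. In aorta with age 0 were higher and 8 lower, where 7.69% of 10411 genes were called (1.69% higher, 6% lower). In valve with age 3 were higher and 3 lower, against 10.1% (4.15% higher, 5.99% lower). Between the neonatal tissues 4 were higher in valve and 8 lower, against 27.2% (12.3% higher, 15% lower), and between the adult tissues 11 were higher and 3 lower, against 33% (17.2% higher, 15.8% lower). For the difference of age differences 1 was called, against 0.0576%. The 1 tested gene among other lecticans and link proteins was not called in any comparison. Of the 41 differences of list genes named here, 12 were called in every alternative.

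Of the 10 tested genes for hyaluronan synthesis, turnover and binding, 4 fell in aorta with age and 4 were higher in adult valve than in adult aorta. Tnfaip6, which encodes TSG-6, a protein that moves heavy chains onto hyaluronan, read 1221, 1361 and 1187 in neonatal aorta and 117, 164 and 299 in adult aorta (-2.81 ± 0.30, adjusted p = 0.00063), and with Stab1 (-1.68) it was lower in neonatal valve than in neonatal aorta (-2.62, adjusted p = 0.0002). The hyaluronan receptors Lyve1 (-1.94), Stab1 (-1.77) and Hmmr (-1.96) fell in aorta as well, although with the block for control RNAs only Tnfaip6 of these 4 was called (adjusted p = 0.0412; 0.317 to 0.347 for the others), and Hmmr fell in valve (-2.36) while the hyaluronidase family gene Hyal3 rose there (1.54). Cemip, a hyaluronan-degrading protein, was higher in valve at both ages (2.64 ± 0.49 neonatal, 2.08 adult), and with it in adult valve Ugdh (1.11), which makes the sugar precursor, Lyve1 (1.80) and Stab1 (1.19). The Stab1 call between the adult tissues, with overlapping arrays, was lost in 7 of 16 alternatives, among them the fit without adult aorta 1. The Hyal3 call in valve was lost in 6 of 16, and those of Lyve1 and Stab1 in aorta with age in 7 of 16 each. The list's median was -0.44 in aorta with age, 0.27 in valve with age, -0.56 between the neonatal and 0.37 between the adult tissues.

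Of 9 other ADAMTS and ADAMTS-like genes tested, Adamts19, whose loss causes valve disease, was higher in valve at both ages. It read 177, 229 and 155 in neonatal aorta and 96.5, 23.0 and 70.2 in adult aorta, against 1506, 607 and 1472 in neonatal valve and 638, 1332 and 2063 in adult valve. Every valve array was above every aorta array (2.58 ± 0.57 neonatal, adjusted p = 0.0061, and adult, adjusted p = 0.00029), and no exact fold is given for the adult difference because adult aorta lay about the level of absent RNA. Adamts12 fell with age in both tissues (-3.01 ± 0.56 in aorta, -2.50 in valve), in aorta by -2.24 without adult aorta 1, which read 165 against 890 and 744 on the other adult arrays, and Adamtsl4 rose in valve (1.68). In neonatal valve Adamts12 (-1.97), Adamts10 (-1.45) and Adamtsl4 (-1.37) were lower than in aorta, and in adult valve Adamtsl2 (2.35) and Adamtsl1 (1.33) were higher. Of these 5 calls, that of Adamts10 was lost in 12 of 16 alternatives, and those of Adamts12 and Adamtsl4 in 5 each. The Adamtsl1 call, with overlapping arrays, was lost in 9 of 16, and the Adamtsl2 call in 0.

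Chondroitin sulfate chains are built on the core proteins by a separate enzyme series, and of its 12 tested genes none was called with age in either tissue. In valve, the linkage enzyme B3gat3 was lower at both ages (-1.36 neonatal, -1.77 adult), as were Chpf2 in the neonatal tissue (-1.25) and B4galt7 in the adult (-1.38). B4galt7 read 81.6, 85.2 and 30.55 in adult valve, around the level of absent RNA. Its call was lost in 5 of 15 alternatives, among them quantile normalization and median centring. Csgalnact1 (1.79), which starts the chain, and Dsel (2.48), a dermatan sulfate epimerase gene, were higher in adult valve. Chst12, a sulfotransferase gene named after its values were seen, was also called lower there. It read 200, 607 and 541 in adult aorta and 125, 117 and 5.63 in adult valve, the last far below the level of absent RNA, and without that array the difference was -1.74. The Dsel difference was 1.64 without adult aorta 1.

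Of the 10 tested genes for versican-binding proteins and an ADAMTS inhibitor, the fibulin gene Fbln2 had the steepest fall in aorta. Fbln2 read 8972, 9705 and 12270 in neonatal aorta and 1418, 1455 and 937 in adult aorta (-3.04 ± 0.22, adjusted p = 0.0001), and 2432, 1991 and 1956 in neonatal valve against 1525, 1307 and 1174 in adult valve. Tnc, tenascin C, which binds versican, fell in both tissues, from 734, 1071 and 1091 to 267, 99.6 and 164 in aorta (-2.54 ± 0.40, adjusted p = 0.0046) and from 2730, 3565 and 3252 to 85.3, 203 and 188 in valve (-4.42 ± 0.40, adjusted p = 0.0003). Fbln1 fell in aorta (-1.12) and was higher in adult valve than in adult aorta (1.05). Timp3, an inhibitor of several ADAMTS proteases, was higher in valve at both ages (2.06 and 2.05), and in neonatal valve Tnc was higher (1.74) and Fbln2 lower (-2.27) than in neonatal aorta. Ccl5, a chemokine gene, rose in valve with age (2.04 ± 0.53, adjusted p = 0.036), from 104.5, 80.1 and 84.9 to 397, 456 and 271. Its call was lost in 8 of 16 alternatives, among them the fits without any 1 valve array. The adult difference of Timp3 was 1.19 without adult aorta 1. With the arrays lacking control RNAs as a block, 16 of the 20 list gene differences that involve neonatal aorta were not called, and the 4 that were are those of Tnfaip6 and Fbln2 in aorta with age and between the neonatal tissues.

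The genes with the pattern most like versican over the 12 arrays were ranked among 10401 genes by the root mean square difference of log2 signals after centring each probe set on its mean. Around Vcan 1388142_at, whose own spread was 1.34, the other 3 Vcan probe sets came in at 0.33 to 0.70, and the nearest genes were Krt24 (0.46), Bcat1 (0.48), Gmds (0.50), Cyp2u1 (0.50) and Rasl11b (0.52), against a median of 1.45 over all genes. Most of the Vcan spread came from adult aorta 1, which read 231 against 2476 to 11337 on the other arrays. Likeness to Vcan therefore rests largely on this array, which held squamous and skeletal muscle RNA. Around Acan 1387355_at, with a spread of 1.32, the nearest were Cit (0.80), Plppr5 (0.81), Septin6 (0.86), Rac2 (0.87) and Atad5 (0.87), against a median of 1.43. The other Acan probe set stood at 1.19, farther than these genes.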

How the data were processed

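Each deposited value is an intensity, the linear-scale signal of 1 probe set on 1 array, which the authors obtained from Affymetrix Expression Console by MAS5, per the submitters' processing notes; neither versions nor a scaling target is stated. A trimmed mean, leaving out 2% at either end, lay at 500.1 to 500.2 on all arrays. Arrays were not pooled. RNA was isolated with Trizol and RNeasy columns, per the labels' protocols.

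Signals below 1 were set at 1 and log2 was taken. Groups followed the titles. limma 3.58.1 in R 4.3.3 fitted 1 mean per group to all 12 arrays, with an intensity trend, and tested 5 contrasts, two-sided, with Benjamini-Hochberg adjustment over 18552 of 31042 probe sets (57 control probe sets left out). Gene names came from the array's probe set table (20826 probe sets with 1 symbol, 436 with several, 9780 with none). The number of arrays, 3 per group, limits precision. In simulated data with known changes, the fit called 15.5 to 16.4% of log2 changes of 1 and 59 to 63% of changes of 2. For changes of 4 it called 90.2 to 91.6%. The simulation changed 200 of 18552 probe sets, a smaller share than the 7.31 to 37.1% called in the 4 comparisons. The adjusted threshold was therefore stricter in the simulation, so these rates do not carry over to the data, least of all between tissues. In such a setting, many changes of 2 or less go without a call. Deviations of same-numbered arrays correlated at -0.31 to 0.24 in aorta with age and at -0.27 to -0.09 between the adult tissues. They correlated at 0.08 to 0.16 in valve with age and at 0.03 to 0.13 between the neonatal tissues. With 3 arrays per group, these values cannot decide whether replicate numbers pair the arrays.

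The genes and lists were chosen with earlier results of these data known. All member probe sets were named, with up to 4 called genes per list and comparison by smallest adjusted p, and the 5 genes most like Vcan and Acan in pattern. Alternatives were a pseudocount of 32, no filter or a filter of 6 arrays, quantile normalization, median centring, no trend, blocks for control RNA and replicate number, only the groups compared, and leaving out each array. Promoters came from RefSeq, build GRCr8.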

Additional observations from a re-analysis of the deposited data

Results flagged for a closer look

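Among the genes of the same biology, the change with age of Fbln2, a fibulin that binds versican, differed between the tissues by a test of that difference itself (2.36 ± 0.31 in log2, limma adjusted p = 0.031). Adult minus neonatal aorta was -3.04 ± 0.22 and adult minus neonatal valve was -0.67 ± 0.22, and every adult array was below every neonatal array of its tissue. The difference stayed at 2.16 to 2.48 under the alternatives, and 14 of 21 of them put its adjusted p at or above 0.05. With the arrays lacking control RNAs as a block it was 2.18 (adjusted p = 0.34), a value that rests on neonatal aorta 1 alone.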

How the results depend on the processing

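No called difference of the 10 genes changed sign under any alternative. Of 138 values for called differences under alternatives other than leaving out 1 array, 110 kept the call and 28 did not, and of 84 that left out 1 array, 55 kept it and 29 did not. The counts of called probe sets, of 16, moved as follows, and the cause was not tested. In aorta with age the count of 1 became 0 with the control RNA block, 0 with only the groups compared, 0 without the 3 arrays with other tissue and 2 with the replicate block, and ran from 0 to 3 when 1 array was left out. In valve with age the count of 2 became 1 with the control RNA block and 1 without the 3 arrays, and ran from 1 to 2. Between neonatal tissues the count of 4 became 0 with the control RNA block and 7 with only the groups compared, and ran from 2 to 4. Between adult tissues the count of 7 became 1 with only the groups compared and 4 without the 3 arrays, and ran from 3 to 8. For the difference of age differences it was 0 throughout, and a fit of only the groups compared is the same fit there. The replicate block, with numbers not known to pair the arrays, moved no other of these counts by over 1.5 times. Over all probe sets the calls in aorta with age ran from 69 to 2485 over the alternatives (1357 in the fit reported), in valve with age from 662 to 1786 (1709), between neonatal tissues from 1416 to 9008 (6043), between adult tissues from 3646 to 8038 (6891), and for the difference of age differences from 1 to 37 (11). Hapln1 1370125_at was not tested under the filter of 6 arrays. Signals near the level of absent RNA, as for Hapln1 in aorta and Acan in adult valve, limit how exactly a ratio can be given.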
